A study of Arabidopsis thaliana with 6 samples.

Results

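The probes of the mitochondrial genome were the 74 non-control array probes whose locus code begins with ATMG, out of 43603 non-control probes. They represent 67 locus codes, of which 61 have 1 probe and 6 have several. All of these probes are on the arrays, while none is among the 38464 entries of the deposited normalized table. Transcripts were compared between wild type and *hy5*, a mutant that lacks the bZIP transcription factor HY5, which promotes seedling development in light. Both genotypes were *Arabidopsis thaliana* Col seedlings at an age of 3 days, grown in continuous white light on sucrose-free MS medium, with 3 one-color Agilent arrays each. The *hy5* line carries the T-DNA insertion SALK_096651 and differs from wild type, by its labels, in no other allele or treatment. RNA came from whole seedlings, so a smaller share of one cell type and less RNA per cell cannot be told apart.

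The plant mitochondrial genome encodes some subunits of the respiratory chain complexes and of the ATP synthase, factors for the maturation of cytochrome *c*, part of the mitochondrial ribosome and many open reading frames without an assigned function. The remaining subunits, and the phage-type RNA polymerases that transcribe the mitochondrial genome, are encoded in the nucleus and imported. Plant mitochondrial transcripts mostly lack long, stable poly(A) tails, and the labeling kit starts its cDNA from such tails. A probe's signal therefore reflects both the amount of a transcript and how well it was primed, which cannot be told apart here. None of the 67 ATMG locus codes matched the gene table at hand, which lists mitochondrial genes only by other identifiers, so the loci are given by code with no gene name or role.

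Signals are given as the scaled signal, the processed intensity of a probe divided by the 75th percentile of intensities on its array. On the *hy5* arrays that percentile was an intensity of 986 to 1063, and on those of wild type 490 to 560. Every difference below is the log2 difference of the scaled signal, *hy5* minus wild type, from the limma fit over all 32234 tested probes. Testing required a signal well above background on all 3 wild-type arrays or all 3 *hy5* arrays, and a probe was called when the adjusted p was under 0.05 and the change at least 2-fold. The scaled signal of *HY5* itself averaged 1.31 ± 0.0716 over the wild-type arrays and 0.0222 ± 0.00567 over the *hy5* arrays (SD, n = 3 each), the direction the labels imply. The wild-type arrays lay on slide 1 and the *hy5* arrays on slide 2, and each genotype was scanned in a session of its own, so slide and scan cannot be told apart from genotype. The sources do not say whether replicates came from separate plantings. The p-values then measure the spread between these arrays, which may be technical.

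Most mitochondrial probes had a lower scaled signal in *hy5*. Of the 74 probes, 61 were tested, representing 54 loci, and 57 of the 61 were below 0 and 4 above it on this scale, whereas the median was above 0 without scaling and with spike-in scaling. The median difference of the 61 was -0.64, a ratio of 0.64, with quartiles of -0.82 and -0.37. Over the 51 probes well above background on all 6 arrays the median was -0.68 and the range -1.46 to 0.22. Over all tested probes the median was 0.0064. At an adjusted p under 0.05, 39 of the 61 probes (63.9%) fell and 1 rose, against a background of 25.4% and 25.8% of all tested probes. The 3 arrays of each genotype did not overlap for 44 probes that were lower in *hy5* (72.1%) and for 2 that were higher, against 30.5% and 30.7% of all tested probes. Most of the falls were under 2-fold, and 9 probes (14.8%) were called lower and 0 higher, where 4.55% of all tested probes were called lower and 6.16% higher. In the limma fit no mitochondrial probe was 2-fold higher at any p, so an unadjusted p under 0.05 also gives 0, as did the methods' t-test.

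**Figure D1:**
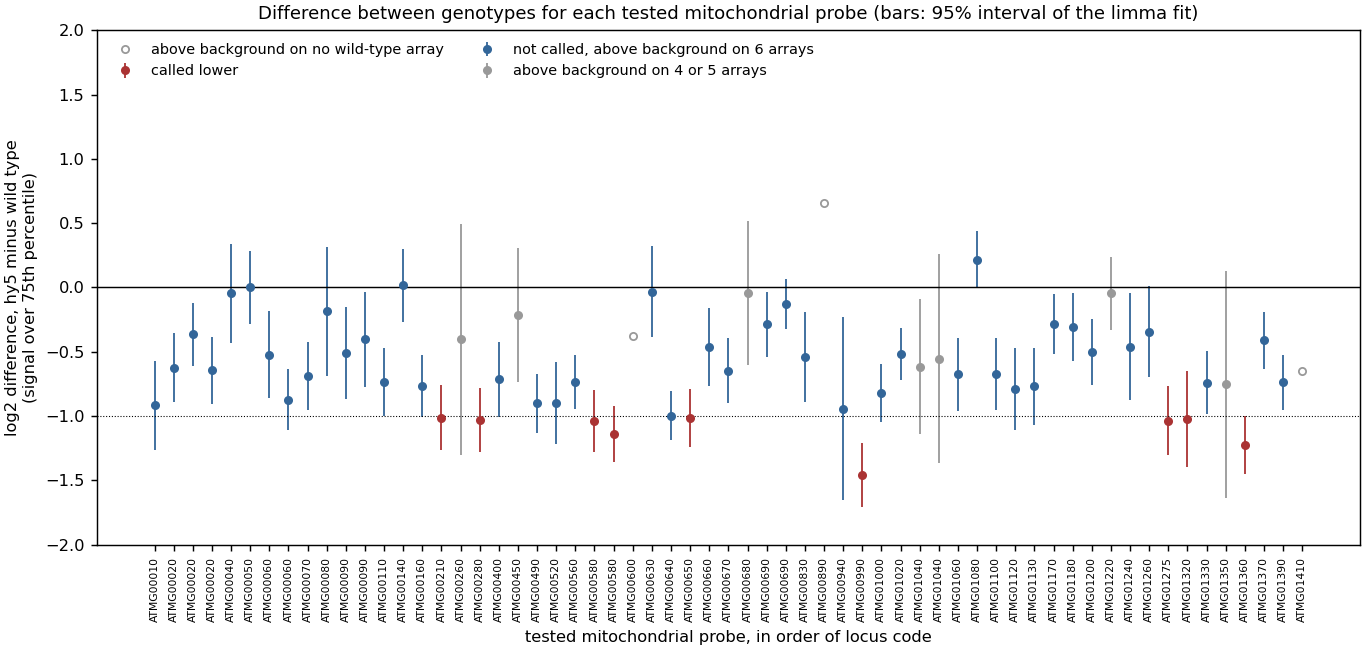
Log2 difference of the scaled signal, *hy5* minus wild type, for the 61 tested mitochondrial probes in order of locus code. Points are limma estimates from 3 arrays a genotype and bars their 95% intervals, and open points, without bars, are probes well above background on no wild-type array, which have no measured fold. The dotted line marks a 2-fold fall, and a probe is red where it was called lower. On this scale 57 points lie below 0, while without scaling or with spike-in scaling their median lies above 0.

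The 9 called probes belong to 8 loci. The largest fall was at ATMG00990, where the scaled signal was 1.79, 1.63 and 1.46 on the wild-type arrays and 0.553, 0.595 and 0.620 on the *hy5* arrays. Every *hy5* array lay well under the lowest wild-type array. The difference was -1.46 ± 0.108 (SE), a 2.75-fold fall with an adjusted p of 9.66e-05, which was -0.52 without scaling and turned to 0.13 with spike-in scaling. ATMG01360 came next, with scaled signals of 3.44, 3.17 and 3.54 in wild type and 1.36, 1.54 and 1.44 in *hy5*. The genotypes were again clear of each other. Its fall was 2.34-fold (-1.23 ± 0.0953, SE, adjusted p = 0.000114), and with spike-in scaling the value was 0.36.

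ATMG00580 was the locus with more than 1 called probe. Its dimmer probe gave 5.81, 6.19 and 6.14 in wild type and 2.60, 2.70 and 2.96 in *hy5*, and its brighter probe 90.6, 83.5 and 87.1 against 38.9, 41.7 and 47.2. Both probes thus fell on all arrays, with no overlap, by 2.20-fold (-1.14 ± 0.0925, SE, adjusted p = 0.000134) and 2.05-fold (-1.04 ± 0.103, SE, adjusted p = 0.000289). With spike-in scaling their values turned to 0.45 and 0.55.

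The other 5 called probes lay just past the 2-fold limit, with differences from -1.04 to -1.01. They cover a wide range of brightness. ATMG00280 was among the brighter loci, at 12.9, 11.2 and 12.9 in wild type and 5.74, 5.78 and 6.61 in *hy5*. ATMG00210 was at 2.11, 2.32 and 2.43 against 1.27, 1.07 and 1.07, and ATMG00650 at 1.34, 1.16 and 1.25 against 0.602, 0.594 and 0.654. At all 3 loci the lowest wild-type array was above the highest *hy5* array. ATMG01275 was at 0.647, 0.677 and 0.773 in wild type and 0.305, 0.367 and 0.352 in *hy5*. ATMG01320 was the dimmest called locus, at 0.109, 0.0746 and 0.0831 against 0.0418, 0.0394 and 0.0489. These 2 loci did not overlap between genotypes either. Adjusted p-values of the 5 probes ran from 0.000231 at ATMG00650 to 0.00174 at ATMG01320. All 5 turned positive with spike-in scaling, to between 0.55 at ATMG01275 and 0.58 at ATMG00210.

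**Figure D2:**
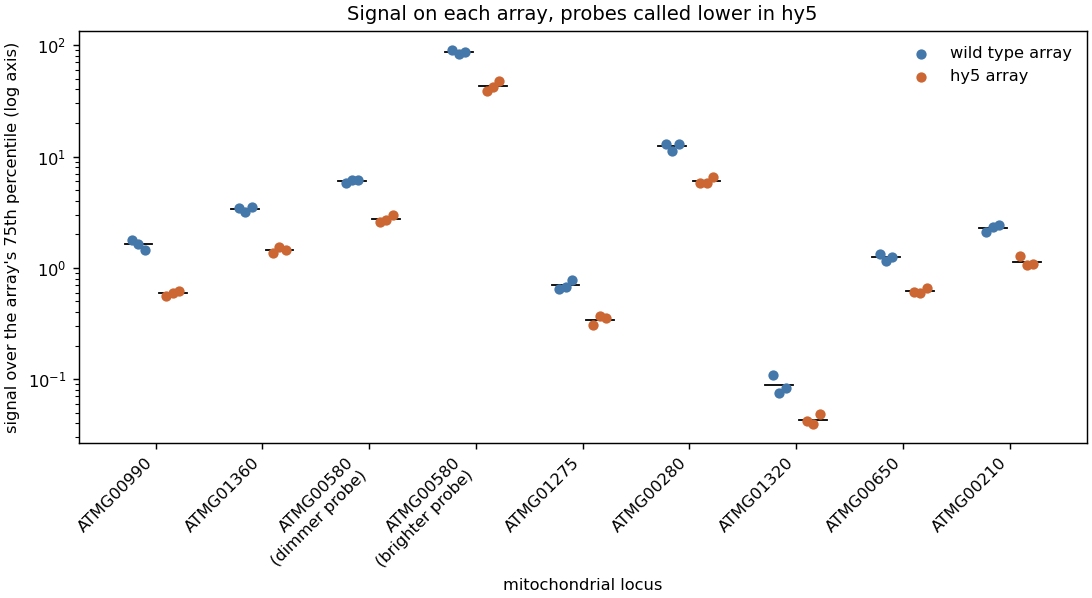
Scaled signal on each of the 6 arrays (log axis) for the 9 mitochondrial probes called lower in *hy5*, in order of their difference. Each point is 1 array and each line the mean of 3. For every probe the 3 *hy5* points lie below the 3 wild-type points on this scale, and with spike-in scaling the differences of all 9 turn positive.

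The 2-fold limit cuts through a continuous series of values. Just outside it was ATMG00640, with 0.335, 0.341 and 0.332 in wild type and 0.164, 0.169 and 0.173 in *hy5*. This was a 1.99-fold fall (-0.996 ± 0.0824, SE, adjusted p = 0.000142), with the smallest error among the 61 probes and no overlap. The values at ATMG00940 were 0.0396, 0.0263 and 0.0471 against 0.0131, 0.0191 and 0.0277, and there the highest *hy5* array reached above the lowest wild-type array. ATMG00940 fell by 0.94 on the log2 scale with an SE of 0.304 (adjusted p = 0.0344). ATMG00010 and ATMG00490 followed, at -0.92 and -0.90. In all, 30 probes fell at an adjusted p under 0.05 but by less than 2-fold, from -0.996 at ATMG00640 to -0.28 at ATMG01170. Because 7 of the 9 called probes lay between -1.14 and -1.01, the number called moved to 5 without *hy5* replicate 1, to 6 without wild-type replicate 1 or *hy5* replicate 2, and to 10 without *hy5* replicate 3. The number past the adjusted p alone stayed between 35 and 40 over the same omissions.

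The brightest mitochondrial signals came from ATMG00020, which has 3 probes. Its brightest probe was at 483, 423 and 483 in wild type and 346, 392 and 340 in *hy5*. The genotypes did not overlap, although the gap was small. This probe fell by 0.37 on the log2 scale with an SE of 0.105 (adjusted p = 0.0223), but was at 0.055 after quantile normalization, 0.57 without scaling and 1.22 with spike-in scaling. It no longer passed by limma with a replicate block (adjusted p = 0.0602), or without wild-type replicate 1 (0.0723) or 3 (0.0666) or *hy5* replicate 1 (0.0563) or 3 (0.0764). By the methods' t-test its p was 0.0178 unadjusted and 0.0595 after adjustment. A 2nd probe of ATMG00020 was at 385, 315 and 361 against 233, 238 and 207, and fell by 0.64 on the log2 scale with an SE of 0.112 (adjusted p = 0.00277), but was at -0.24 with quantile normalization (adjusted p = 0.0535). The last was dim, at 0.286, 0.291 and 0.294 against 0.161, 0.202 and 0.206, and fell by 0.62 on the log2 scale with an SE of 0.115 (adjusted p = 0.00366). Thus all 3 probes fell relative to the 75th percentile, although both of the latter were positive without scaling (0.29 and 0.31) and with spike-in scaling (0.94 and 0.97). By the methods' t-test after adjustment, both of the latter did not pass either (0.0504 and 0.0578). ATMG01390, another bright locus, was at 48.6, 44.6 and 46.8 in wild type and 27.2, 30.0 and 26.9 in *hy5*, a 1.67-fold fall (-0.74 ± 0.0921, SE, adjusted p = 0.000695). Before scaling, its intensity was instead higher on every *hy5* array, at 27760, 29560 and 28560, against 23810, 24930 and 26220 in wild type.

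A few loci stood apart from these falls. Of the 21 probes that did not pass the adjusted p, 18 were below 0 and 3 above it, and 12 were well above background on all 6 arrays. ATMG01080 was at 0.271, 0.272 and 0.305 in wild type and 0.320, 0.345 and 0.320 in *hy5*. Its *hy5* arrays were all above its wild-type arrays, yet the difference of 0.22 ± 0.0938 (SE) did not pass (adjusted p = 0.0896). ATMG00140 and ATMG00050 were at 0.016 ± 0.122 and 0.00049 ± 0.120 (SE), with 95% intervals of -0.27 to 0.30 and -0.28 to 0.28, and their genotypes overlapped. With the normexp background correction, however, 60 of the 61 tested probes were below 0 and 58 fell at an adjusted p under 0.05. There the median of all tested probes was -0.24. ATMG00140 was then at -0.36 (limma adjusted p = 0.00254), while ATMG01080 stayed above 0, at 0.084. Both probes of ATMG00690 had a lower scaled signal on every *hy5* array without passing. Their differences were -0.29 ± 0.108 (adjusted p = 0.0591) and -0.13 ± 0.0831 (SE, adjusted p = 0.219). The brighter of them was at 0.961, 0.957 and 1.02 in wild type against 0.898, 0.879 and 0.901 in *hy5*. Both were positive without scaling (0.65 and 0.80) and with spike-in scaling (1.30 and 1.46). By limma the dimmer probe did pass as a fall with normexp (adjusted p = 5.61e-05) and cyclic loess (0.0359). It also passed among probes well above background on all 6 arrays (0.0441) and without wild-type replicate 1 (0.0336). In the other settings that kept its sign it did not pass.

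The 1 probe that rose at an adjusted p under 0.05, that of ATMG00890, had no wild-type array on which it was well above background. Its scaled signal was 0.00477, 0.00493 and 0.00639 in wild type and 0.00964, 0.00793 and 0.00763 in *hy5*, so the genotypes did not overlap (adjusted p = 0.00866), but its adjusted p was 0.154 with an intensity trend in the prior and 0.065 by the methods' t-test, and between 9.26e-20 and 0.154 over the alternatives that kept its direction. No fold is given, because the bound set by the dimmest signals well above background was under 1. With the normexp background correction its difference was -0.79. The probes of ATMG00600 and ATMG01410 were likewise too dim on every wild-type array, and neither passed. In all, 10 of the tested probes were well above background on 3 to 5 arrays, with a median of -0.39 and 0 called. They passed the filter only through the genotype in which they were detected.

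The remaining 13 probes were not tested. For 8 of them no array was well above background, and for the other 5 only 1 or 2 arrays were. Their highest scaled signal was 0.0150, at ATMG00130. More mitochondrial probes were detected in *hy5*, with 62 to 64 of the 74 well above background per *hy5* array and 52 to 57 per wild-type array. Over all probes the shares moved the same way, at 75.6% to 78.8% in *hy5* and 67.1% to 71.4% in wild type.

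Probes of the same locus could be set against each other within an array, where a constant shift of the whole array cancels. Across the 6 loci with several tested probes there were 8 pairs. Their differences between genotypes were apart by -0.26 to 0.35 on the log2 scale. For 2 pairs the ratio of the probes did not overlap between genotypes: ATMG00060, whose probes fell by 0.87 and 0.52, and the 2 bright probes of ATMG00020. Each of those pairs reached p = 0.1, the smallest a two-sided exact permutation test of 3 against 3 arrays can give, and 0.4 after adjustment over the 8 pairs. That test could not reach 0.05 with these arrays.

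Falls at an adjusted p under 0.05 were found in 11 of 21 probes with a mean wild-type intensity of 10 to 100 and 19 of 23 from 100 to 1000. They were found in 5 of 5 from 1000 to 10000 and 4 of 4 above 10000. Under 10 the count was 0 of 8, but every probe of that band passed the filter only through its *hy5* arrays. The filter thus shaped the values of that band. From the dimmest band to the brightest the median difference was -0.39, -0.52, -0.68, -1.03 and -0.69. Nuclear probes in the same bands had medians of 0.49, 0.043, -0.038, -0.016 and -0.086. Of these nuclear probes, 88 of 2147, 1806 of 7887, 3536 of 12346, 1611 of 5936 and 386 of 1215 fell at that limit. Across the 61 probes, which share the same 6 arrays, the difference and the mean signal had a Pearson's r of -0.37 and a Spearman's rho of -0.41. Across the 51 probes well above background on all 6 arrays they were -0.26 and -0.33. Locus codes are numbered in order along the genome, and in 3 consecutive groups of 18 loci the medians were -0.69 (ATMG00010 to ATMG00520), -0.61 (ATMG00560 to ATMG01060) and -0.66 (ATMG01080 to ATMG01410).

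Array by array, the median log2 scaled signal over the 61 tested mitochondrial probes was -2.19, -2.29 and -2.32 in wild type and -2.83, -2.89 and -2.73 in *hy5*. The genotypes did not overlap, while the median over tested nuclear probes lay between -1.14 and -1.09 on all 6 arrays. All 74 mitochondrial probes together took 0.612% to 0.666% of the summed intensity of a wild-type array and 0.449% to 0.490% of that of a *hy5* array. Most of this came from the bright pair of ATMG00020 probes, and without them the shares were 0.114% to 0.117% and 0.0624% to 0.0701%.

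Chloroplast genome probes were lower in *hy5* as well. All 75 were tested and all 75 were below 0, and their median was -1.34, although the median was -0.40 without scaling and 0.25 with spike-in scaling. The calls included 51 of them (68.0%), each lower. The mitochondrial median of -0.64 lay between the chloroplast median and that of the 29531 nuclear probes, which was 0.011. Of the nuclear probes, 1275 (4.32%) were called lower and 1826 higher. No test was made between the genomes.

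**Figure D3:**
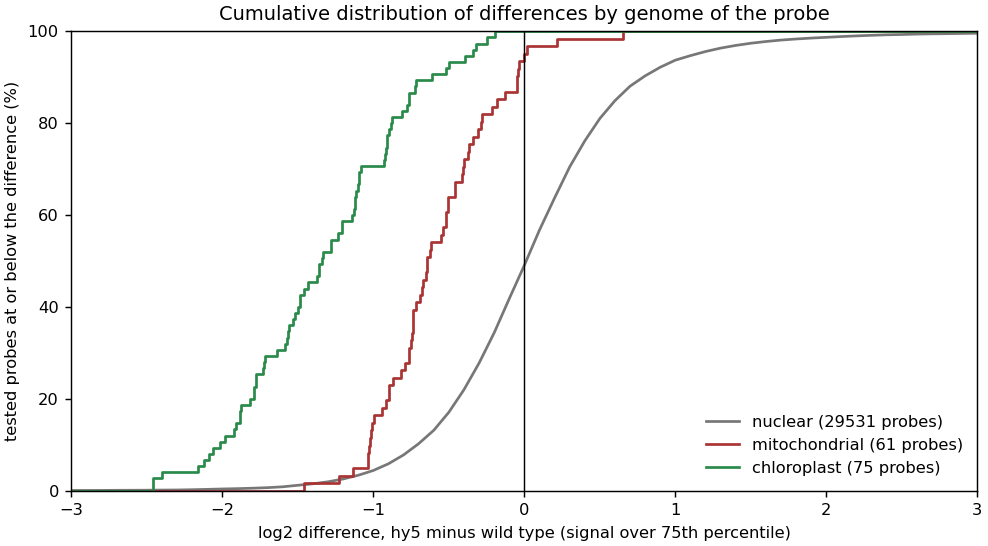
Cumulative share of tested probes (vertical axis, percent) at or below each log2 difference, *hy5* minus wild type (horizontal axis), for 61 mitochondrial, 75 chloroplast and 29531 nuclear probes. The medians of -0.64, -1.34 and 0.011 order the curves on the 75th-percentile scale. Scaling shifts all 3 curves together, and the mitochondrial median is above 0 without scaling and with spike-in scaling.

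Chromosome 2 of the Col accession carries a large insertion of mitochondrial DNA, whose near-identical copies can share signal with mitochondrial probes. Probe sequences were not analysed here, so the signal of a mitochondrial probe is uncertain by that share. The array holds 109 probes with locus codes from AT2G07667 to AT2G07835, a range set to cover the insertion that can also hold ordinary nuclear genes. Of the 79 tested, 75 were below 0. At an adjusted p under 0.05, 57 (72.2%) fell and 8 (10.1%) were called lower, against 25.4% and 4.55% of all tested probes. The median of the 79 was -0.64, but 0.30 without scaling and 0.95 with spike-in scaling.

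Nuclear genes for the same respiratory complexes did not share this pattern. In a list of 41 nuclear loci for complexes I to IV, cytochrome *c* and the ATP synthase, each taken by its brightest probe, 37 were above 0 and 4 below. At an adjusted p under 0.05, 25 rose and 1 fell, against 25.8% and 25.4% of all tested probes. The 1 called higher, AT5G25450, was tested only through its *hy5* arrays, since no wild-type array was well above background there. Their median was 0.35, and it was above 0 under all 6 other scaling and background settings. Rises were found in complex I (7 of 12 genes), complex II (2 of 4), complex III (6 of 9), cytochrome *c* (2 of 2), complex IV (3 of 5) and ATP synthase (5 of 9). *CYTC-1*, one of the cytochrome *c* genes, was at 19.7, 15.9 and 16.6 in wild type and 26.9, 35.4 and 26.5 in *hy5*, with no overlap, and rose by 0.76 ± 0.145 (SE, adjusted p = 0.00424). *CYTC-2* rose by 0.34 ± 0.108 (SE, adjusted p = 0.0321). In complex I, *FRO1*, a subunit of the NADH dehydrogenase, rose by 0.71 ± 0.160 (adjusted p = 0.00834) and *GAMMA CA1*, a gamma carbonic anhydrase subunit, by 0.64 ± 0.0934 (SE, adjusted p = 0.00132). In complex II, *SDH3-1* rose by 0.43 (adjusted p = 0.00894), while *SDH1-1*, the flavoprotein subunit of succinate dehydrogenase, was the 1 gene that fell (-0.45 ± 0.157, SE, adjusted p = 0.0470), a value that turned to 0.49 without scaling and 1.14 with spike-in scaling.

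In complex III the largest differences were at AT5G25450, with a bound of at least 1.66-fold higher in *hy5* (adjusted p = 0.0194) but -0.57 with normexp, and at AT5G13430, which rose by 0.58 (adjusted p = 0.00161). The bound sets the mean log2 signal in *hy5* against that of wild type. Each wild-type array enters at the higher of the probe's own signal and the dimmest signal well above background. In complex IV, *COX6B* rose by 0.46 (adjusted p = 0.00426) and AT3G15640 by 0.40 (adjusted p = 0.00873). In the ATP synthase, *ATP5* rose by 0.45 (adjusted p = 0.00644) and *ATP3* by 0.38 (adjusted p = 0.0249). The opposite sides of 0 on which the mitochondrial and the nuclear subunit genes lay depend on the scaling, since without scaling both medians were positive (0.29 and 1.28).

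The alternative oxidases, nuclear-encoded enzymes that pass electrons to oxygen without the cytochrome pathway, did not move together. *AOX1A* had scaled signals of 10.3, 10.6 and 10.3 in wild type and 3.50, 3.50 and 3.99 in *hy5*. The genotypes were far apart, and *AOX1A* fell by 1.51 on the log2 scale with an SE of 0.0929 (adjusted p = 5.07e-05), although the value was 0.081 with spike-in scaling. All 3 *AOX1A* probes were called lower. *AOX2* was too dim for detection on every wild-type array and was tested only through its *hy5* arrays. On the scaled signal its bound was 1.17-fold higher in *hy5* (adjusted p = 0.000976), but with normexp its difference was -0.55. The direction at *AOX2* thus depended on the background correction. *AOX1C* rose by 0.98 (adjusted p = 0.00148) and *AOX1D* by 0.34 (adjusted p = 0.0486).

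Among 18 nuclear loci for the expression of mitochondrial genes, 9 were above 0 and 9 below, with 6 that fell and 1 that rose at an adjusted p under 0.05, where 25.4% and 25.8% of all tested probes did. Their median was -0.066 by the brightest probe of each locus, but 0.063 over all 21 probes of the list, 0.016 with quantile normalization and 0.069 with cyclic loess. With normexp it was -0.33, with 15 of the 18 loci below 0, where the median of all tested probes was -0.24. The list median was 0.87 without scaling and 1.52 with spike-in scaling. The 1 called lower was *MGP3*, also known as *RPOTm*, which encodes a phage-type RNA polymerase of mitochondria. Its scaled signal was 0.112, 0.114 and 0.116 in wild type and 0.0753, 0.0435 and 0.0527 in *hy5*. The wild-type arrays were close together, and all *hy5* arrays lay below them. *MGP3* fell by 1.04 on the log2 scale with an SE of 0.189 (adjusted p = 0.00343), whereas the value was -0.10 without scaling and 0.55 with spike-in scaling. Another phage-type polymerase of the list, AT5G15700, was at 0.016 ± 0.141 (SE, adjusted p = 0.934), and its genotypes overlapped. *EMB2730*, also known as *RNR1*, encodes an organellar exoribonuclease. It was at 0.390, 0.482 and 0.463 against 0.282, 0.261 and 0.280 and fell by 0.69 on the log2 scale with an SE of 0.108 (adjusted p = 0.00178), but was at 0.24 without scaling and 0.90 with spike-in scaling.

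**Figure D4:**
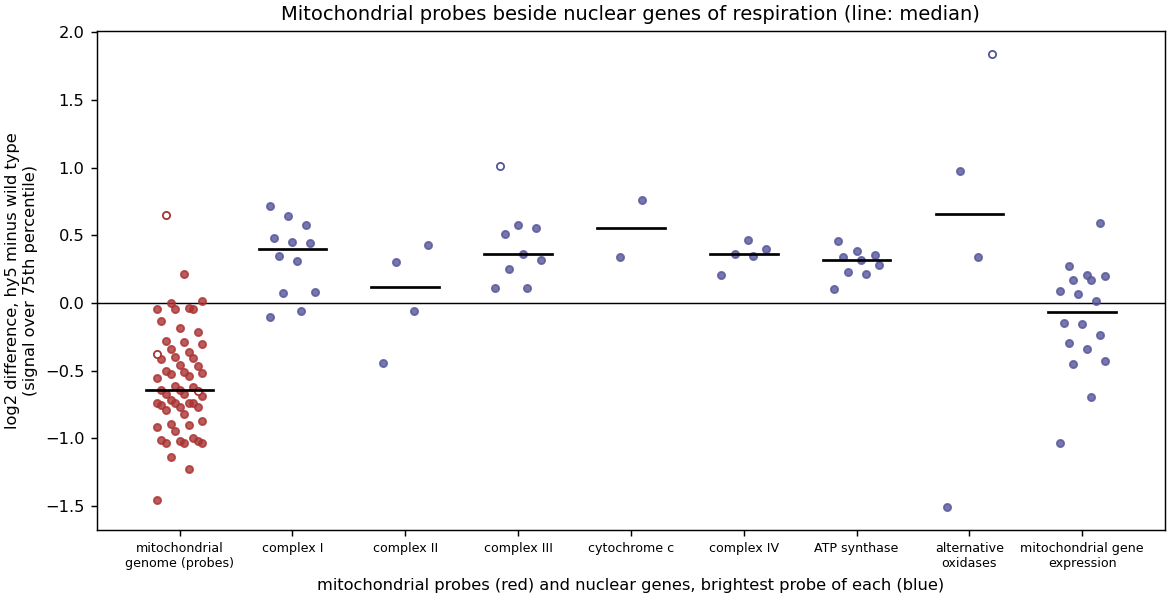
Log2 difference of the scaled signal, *hy5* minus wild type, for the 61 tested mitochondrial probes (red) and for nuclear genes by complex or list, each by its brightest probe (blue). Each point is 1 probe, open where no wild-type array was well above background and no fold was measured, and each line is a median. On this scale the median is -0.64 for the mitochondrial probes and 0.35 over the 41 nuclear respiratory chain genes, and without scaling both medians are positive, at 0.29 and 1.28.

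Marker genes of other tissues also differed between the genotypes. All 6 green-tissue markers were below 0, and 5 fell at an adjusted p under 0.05, as did 25.4% of all tested probes. The green-tissue markers had a median of -0.48, but it was 0.45 without scaling and 1.11 with spike-in scaling. Their summed scaled signal was 1650 to 1900 on wild-type arrays and 1220 to 1340 on *hy5* arrays. The 3 root markers rose at that limit, as did 25.8% of all tested probes, with sums of 9.61 to 12.2 against 16.7 to 22.1. All 8 seed storage and maturation markers were called higher, against 6.16% of all tested probes. The seed markers had a median of 3.10 and sums of 0.652 to 1.56 against 7.28 to 13.5. With normexp, however, their median was 1.71 and 1 of the 8 was below 0. Of these markers *SESA1* had no wild-type array well above background and was tested only through its *hy5* arrays, with a bound of at least 2.23-fold higher in *hy5*. The genotypes overlapped at *SESA3*, with 0.0883, 0.178 and 0.112 in wild type against 0.425, 0.427 and 0.160 in *hy5*. The part of these tissues in the mitochondrial differences was not tested.

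The direction given above rests on the scaling of the arrays. The 75th percentile of intensity was higher in *hy5* by 0.93 on the log2 scale, while 9 of the 10 spike-in control probes were lower in *hy5*, with a median of -0.59 and a range from -0.69 to 0.011. Without scaling, the mitochondrial median was 0.29 and that of all tested probes 0.94. With each array scaled to its spike-in probes these medians were 0.94 and 1.60, and 28 mitochondrial probes were called higher and 0 lower. The gap between the medians was -0.65 in each of these fits, because such a scaling shifts every probe of an array alike. Settings that do not shift all probes alike gave gaps of -0.54 with quantile normalization, -0.58 with cyclic loess and -0.48 with normexp. The mitochondrial probes thus lay below the typical probe under every scaling tried, whereas without scaling the median was above 0 and 1 probe, that of ATMG00990, fell at an adjusted p under 0.05.

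**Figure D5:**
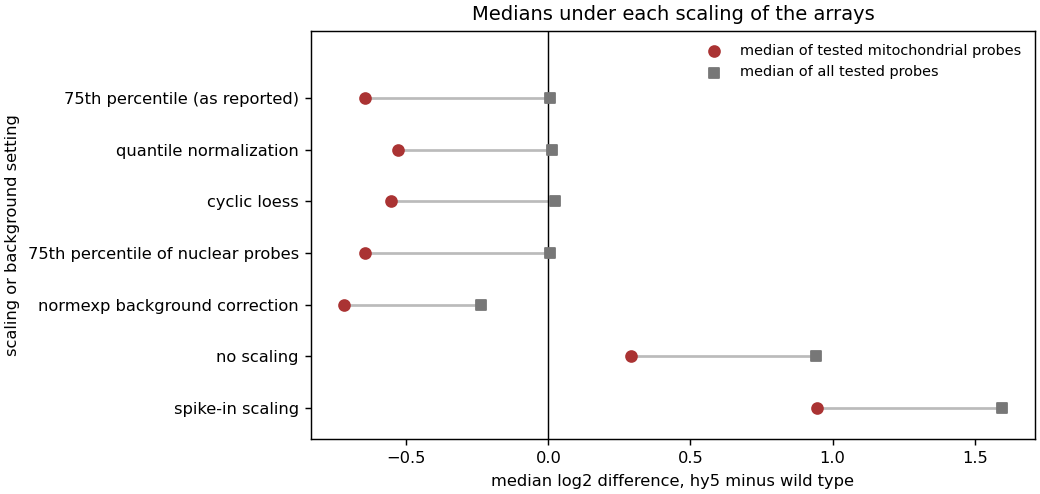
Median log2 difference, *hy5* minus wild type, of the tested mitochondrial probes (circles) and of all tested probes (squares) under 7 scaling and background settings. The circle lies left of the square in each setting, by 0.48 to 0.65, and is positive without scaling (0.29) and with spike-in scaling (0.94). Settings that shift all probes of an array alike must share the gap of 0.65. Only quantile normalization, cyclic loess and normexp could change it.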

How the data were processed

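The deposited scanner files of 6 one-color arrays were used, 3 a genotype. The authors made them with Agilent Feature Extraction 10.7.3, per the labels, and hold background-subtracted linear intensity values, with flags for spots above background, outliers and saturation. No non-control spot was saturated. A further deposited table holds the ratio of each intensity to each array's 75th percentile, without organellar probes. It was used only to recover its divisors, 564 to 644 on the arrays of wild type and 1136 to 1228 on those of *hy5*.

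From the deposited intensities, log2 values were formed and spots of a probe were averaged. The 75th percentile of the non-control probes of an array was then subtracted, and 30 probes with outlier flags (0 mitochondrial) were left out. The two-sided test between genotypes used lmFit and eBayes of limma 3.58.1 (R 4.3.3), with Benjamini-Hochberg adjustment over 32234 probes. The test was checked on simulated data. The number of arrays limits the precision. The bound of a probe that is not well above background in a genotype uses, on each array, the higher of its own signal and the lowest signal among probes well above background.

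The probes, gene lists and tests were chosen with earlier results of these data known. Values on each array were to be given for the 3 largest falls, the 3 largest rises, the brightest probe and 7 genes chosen by name. The latter, and groups by function, could not be applied, since no ATMG code was matched to a gene in TAIR10.1. The other called probes, those near the 2-fold limit, ATMG01390 and the further probes of ATMG00020 and ATMG00690 were added after their values were seen. For nuclear lists the 2 largest changes of each were named, and *AOX1C*, *AOX1D* and AT5G15700 were added. Nuclear lists were set by locus code, and the gene table gives a symbol other than the code for 21 of the 41 respiratory chain loci. Deviations of same-numbered arrays from their genotype means correlated at -0.035, -0.085 and 0.071, and the numbers were taken as names that pair nothing. No 2 arrays held identical values. Alternatives covered background correction, scaling, the filter on dim probes, 1 probe per locus, an intensity trend in the prior, omission of each array, a replicate block and the methods' t-test. No sequence is printed, since the files used here hold none for these probes.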

Additional observations from a re-analysis of the deposited data

How the results depend on the processing

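Of the alternatives to 75th-percentile scaling, quantile normalization, cyclic loess and the 75th percentile of nuclear probes kept 9 mitochondrial probes called lower, and normexp left 4. With normexp, though, 60 of the 61 tested probes were below 0 and 58 fell at an adjusted p under 0.05. Without scaling, 0 were called lower and 2 higher, 1 fell at an adjusted p under 0.05 and the median was 0.29. With spike-in scaling, 0 were called lower, 28 were called higher, 0 fell at an adjusted p under 0.05 and the median was 0.94. Cyclic loess called 1 probe higher, that of ATMG00890. The median was -0.72 with normexp, -0.53 with quantile normalization and -0.55 with cyclic loess. The gap to the median of all tested probes, -0.65 as reported, was -0.48 with normexp, where that median was -0.24, -0.54 with quantile normalization, -0.58 with cyclic loess and -0.48 when dim probes were kept. After adjustment, the methods' t-test left 24 probes that fell, against 39, and 8 called lower. With a replicate block, 9 were called lower and 37 fell at an adjusted p under 0.05, and among named probes the brightest of ATMG00020 no longer passed the adjusted p (0.0602). The share of all tested probes called lower, 4.55% as reported, was 0.45% without scaling, 0.0993% with spike-in scaling and 12.2% with no filter.

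Leaving out 1 array at a time gave 5 to 10 probes called lower, 0 called higher, 35 to 40 that fell, medians of -0.67 to -0.58 and gaps of -0.67 to -0.58. Of 318 values of 17 named probes, 256 stayed in direction and on the same side of the limits for a call, 30 lost the call, 6 gained one and 26 changed sign. Most sign changes came with spike-in scaling, at ATMG00990 (0.13), ATMG01360 (0.36), ATMG00580 (0.45 and 0.55), ATMG01275 (0.55), ATMG00280 (0.56), ATMG01320 (0.57), ATMG00650 (0.57), ATMG00210 (0.58), ATMG00020 (1.22, 0.94 and 0.97) and ATMG00690 (1.30 and 1.46). Without scaling the sign changed at ATMG00020 (0.57, 0.29 and 0.31) and ATMG00690 (0.65 and 0.80), and with quantile normalization at the brightest ATMG00020 probe (0.055). ATMG00890 was at -0.79 with normexp, and its adjusted p was 0.154 with an intensity trend in the prior and 0.065 by the methods' t-test. ATMG00140 was at -0.36 with normexp, -0.027 with cyclic loess and between -0.067 and 0.11 with 1 array left out. No block for slide or scan could be fitted, as each genotype had its own slide. Signal over background limits what can be said of the 13 probes not tested and the 10 well above background on only 3 to 5 arrays.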
